A study of Mus musculus with 6 samples.

Results

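The glycolysis and lactate export genes of the C3(1)-Tag mouse mammary gland were followed gene by gene through tumour epithelium, macrophages, fibroblasts and endothelium. The set was a given list of 10 genes, Slc2a1, Hk2, Pfkp, Aldoa, Pgk1, Eno1, Ldha, Pkm, the lactate exporter Slc16a3 and the hypoxia target Ankrd37, chosen by name with earlier results of these data known, and all 10 were found among the 31055 features of the count tables. C3(1)-Tag mice are FVB/NJ females that carry the SV40 large T antigen under the regulatory sequence of the rat C3(1) gene, which drives it in mammary epithelium and some other epithelia, and they develop mammary tumors on their own. Droplet single-cell RNA sequencing was done on whole mammary glands at 5 weeks of age (Prepuberty), whole glands at 14 weeks (DCIS, ductal carcinoma in situ) and palpable tumors taken after 18 weeks of age (Tumor), with 2 libraries in each state. Every library carried the transgene, so no group without it was available for comparison, and age, tissue and state changed together and cannot be told apart. The study describes each Prepuberty and DCIS specimen as a gland of a mouse whose contralateral gland went to histology, and it speaks of 2 tumors for the 2 Tumor libraries. Where it models cell numbers, the study calls the 2 replicates of each state technical. The p-values measure the spread between libraries.

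After filtering, 21537 cells remained with 2548 to 4306 cells per library and a median of 6541 to 13632 UMIs (unique molecular identifiers, each counting 1 captured transcript) per cell. The Tumor libraries had the highest medians. Of 21276 distinct cell barcodes, 259 occurred in more than 1 library. Cells were clustered without the genes of any list used here, and classes were named from markers: epithelial-like (110 to 2626 cells per library), macrophage-like (84 to 426), fibroblast-like (225 to 1941) and endothelial-like (33 to 703). None of the 8 markers of a class was at 0 in any library of that class. The labels give all samples the same overnight digestion, while the study's methods give the tumors another dissociation kit and Tumor 2 a later version of the library chemistry, so handling and state cannot be told apart.

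Cells take up glucose through carriers such as GLUT1 (Slc2a1), break it down in the cytosol to pyruvate through the enzymes of glycolysis, and, when pyruvate is not burned in mitochondria, reduce it to lactate with lactate dehydrogenase A (Ldha) and release it through the carrier MCT4 (Slc16a3). Under low oxygen the transcription factor HIF-1, a pair of HIF-1α (Hif1a) and ARNT, binds short response elements near many of these genes and raises their transcription, and many tumours show high glycolysis even where oxygen is present. Ankrd37, an ankyrin repeat protein with no role in glycolysis, is a direct HIF-1 target and is widely used as a readout of the hypoxic response.

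The start-site windows below are those of the genes whose Tumor against DCIS change differed between cell classes. They are RefSeq sequences of the GRCm38.p6 build, 250 bases before to 50 bases after the start site, read on the strand of the gene. Capitals mark the core letters of the HIF-1 response element, searched as ACGTG and GCGTG on both strands (CACGT and CACGC in the letters as printed), and matches may overlap. The windows lie at chr4:119108495-119108794 on the plus strand for Slc2a1, chr7:46845554-46845853 on the plus strand for Ldha, chr11:120948817-120949116 on the plus strand for Slc16a3 and chr8:45999801-46000100 on the minus strand for Ankrd37.
Slc2a1: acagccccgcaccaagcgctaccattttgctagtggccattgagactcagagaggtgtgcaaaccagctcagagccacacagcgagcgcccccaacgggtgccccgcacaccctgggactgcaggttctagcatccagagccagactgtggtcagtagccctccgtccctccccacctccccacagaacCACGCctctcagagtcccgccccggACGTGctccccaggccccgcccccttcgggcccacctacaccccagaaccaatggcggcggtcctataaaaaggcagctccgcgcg
Ldha: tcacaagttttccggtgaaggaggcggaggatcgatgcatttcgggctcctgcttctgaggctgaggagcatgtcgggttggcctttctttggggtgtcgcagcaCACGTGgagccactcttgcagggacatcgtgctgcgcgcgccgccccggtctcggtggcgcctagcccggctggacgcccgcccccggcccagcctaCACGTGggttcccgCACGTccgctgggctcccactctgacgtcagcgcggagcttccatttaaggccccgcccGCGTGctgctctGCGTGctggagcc
Slc16a3: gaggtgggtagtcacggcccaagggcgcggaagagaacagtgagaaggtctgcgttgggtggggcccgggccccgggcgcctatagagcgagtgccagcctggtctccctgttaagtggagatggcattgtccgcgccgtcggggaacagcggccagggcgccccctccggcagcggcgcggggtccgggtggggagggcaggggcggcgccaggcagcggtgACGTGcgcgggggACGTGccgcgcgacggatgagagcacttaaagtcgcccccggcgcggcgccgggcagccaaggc
Ankrd37: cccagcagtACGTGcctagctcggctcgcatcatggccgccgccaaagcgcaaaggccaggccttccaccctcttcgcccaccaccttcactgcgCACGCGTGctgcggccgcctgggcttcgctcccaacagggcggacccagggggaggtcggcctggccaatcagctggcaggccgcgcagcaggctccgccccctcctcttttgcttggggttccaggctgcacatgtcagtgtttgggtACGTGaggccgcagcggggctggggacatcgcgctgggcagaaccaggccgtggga
Ldha held 7 matches, Ankrd37 held 4, and Slc16a3 and Slc2a1 held 2 each. Of all 16 windows that the 10 genes have in the table, 14 held at least 1 match, as did 43.8% of the 32817 windows of all genes. With 1 window taken per gene, that with the most annotated transcript starts, 9 of the 10 genes had a match. Pkm had none in that window and a match in its other one. With 3 or more matches there were 3 of those 10 windows (Pfkp, Ldha and Ankrd37), and 8.93% of all windows. A match is a string of letters and does not show binding.

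For each gene, counts were summed over the cells of a class in a library and are given below as normalised CPM, the CPM divided by the TMM factor of that sum, which puts the 6 libraries of 1 class on 1 scale. Sums of different classes were scaled apart, so levels are compared between classes only through a fit of all sums together.

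**Figure D1:**
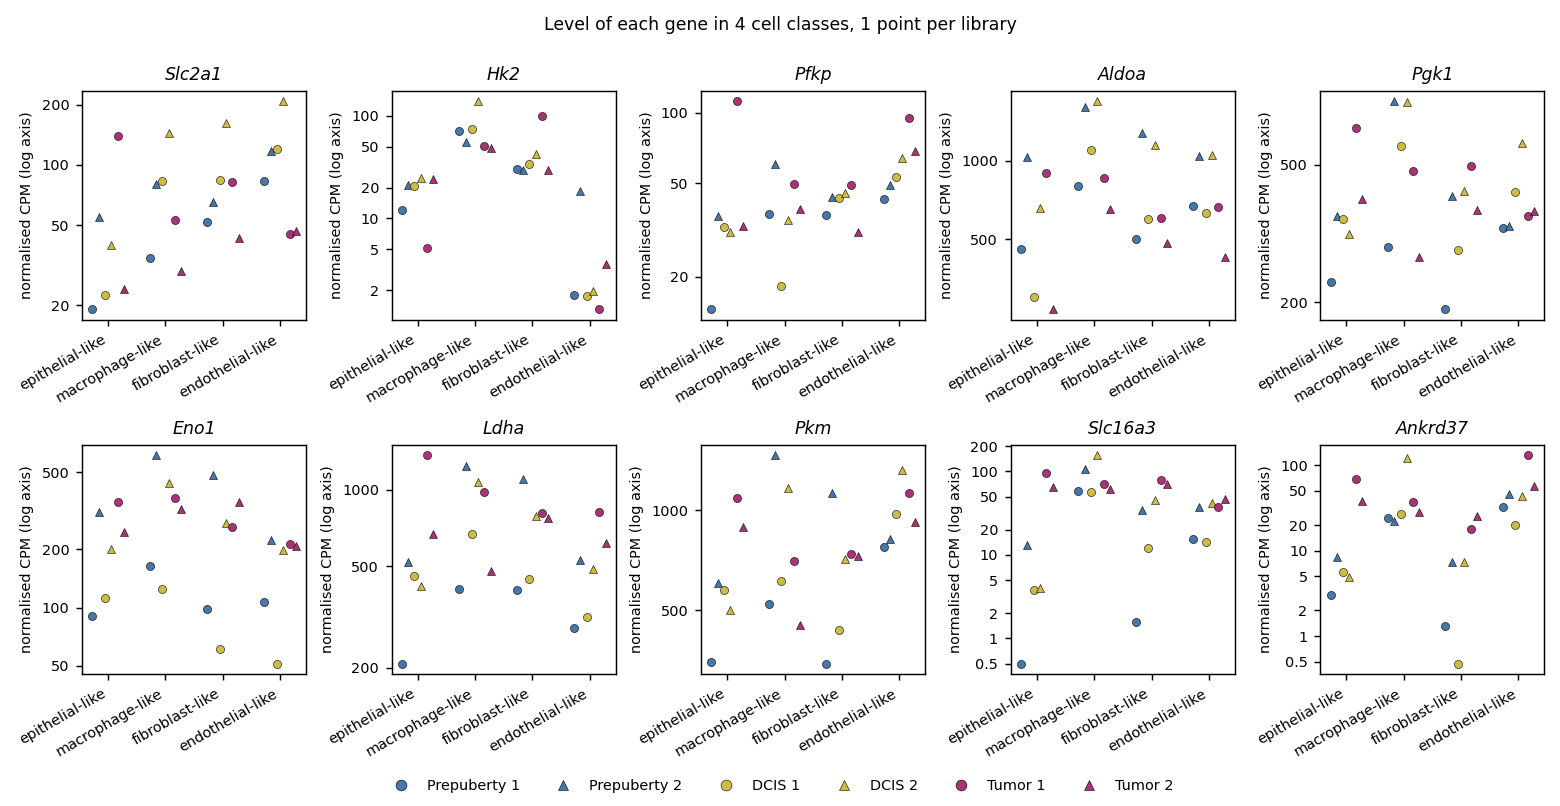
Each panel shows 1 gene, with the 4 cell classes along the x axis and normalised CPM on a log y axis. Each point is 1 library, with colour for the state and shape for the replicate number, and no error bar is drawn because each state has 2 libraries. Slc16a3 and Ankrd37 in epithelial-like cells have both Tumor points above all points of the other states.

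Epithelial-like cells of the Tumor libraries had higher Slc16a3 and Ankrd37 than those of DCIS or Prepuberty, with no overlap between libraries, and 1 of the 2 passed the test across all genes. Ankrd37 rose from 5.61 and 4.88 normalised CPM in DCIS to 68.7 and 38.6 in Tumor, a log2 fold change of 3.35 ± 0.52 (SE, n = 2 against 2, adjusted p = 0.0344). It had 2.996 and 8.34 in Prepuberty, against which the Tumor level was higher by 3.41 ± 0.55 on the log2 scale (adjusted p = 0.0251). Ankrd37 was the member that passed in epithelial-like cells, 1 of 10 in Tumor against DCIS, where 2.36% of the 13288 genes tested passed, and 1 of 10 in Tumor against Prepuberty, where 6.94% passed. The size of the Ankrd37 change stayed between 2.87 and 3.83 over 17 alternative settings for Tumor against DCIS, of which 10 kept it past the threshold. Settings that lost it included the replicate number as a block and only the cells with a T-antigen UMI. Leaving out DCIS 2 gave an adjusted p of 0.251.

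Slc16a3, the lactate exporter, had the larger fitted change of the pair, an order that was not tested. It was at 0.499 and 13.2 normalised CPM in Prepuberty, 3.83 and 3.98 in DCIS, and 96.9 and 64.6 in Tumor. Both Tumor libraries lay above the others, with 4256 and 2319 UMIs against 6 to 56. The log2 fold change was 4.37 ± 1.06 against DCIS (adjusted p = 0.0684) and 3.93 ± 1.11 against Prepuberty (adjusted p = 0.0709), so neither passed at 0.05. The change against Prepuberty ran from 2.61 without Prepuberty 1 to 7.26 without Prepuberty 2, and it passed in 3 of 17 alternative settings. It passed against DCIS in 7 of 17 alternative settings, DESeq2 among them (adjusted p = 0.0248), with changes from 4.04 to 4.73, and the highest adjusted p was 0.408 without DCIS 2.

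Ldha, which turns pyruvate into lactate, had 458 and 416 normalised CPM in DCIS and 1365 and 671 in Tumor. Both Tumor values exceeded all 4 others, the highest of which was 520.4 in Prepuberty 2. The change of 1.22 ± 0.51 on the log2 scale did not pass (adjusted p = 0.19), and it was 0.61 without Tumor 1 and 1.62 without Tumor 2. Pkm, the pyruvate kinase that makes pyruvate, had the same order, with 576 and 500 (DCIS) and 1090 and 892 (Tumor) and a change of 0.88 ± 0.35 (adjusted p = 0.177).

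Slc2a1, the glucose carrier, separated the Tumor libraries from each other. Its normalised CPM was 19.1 and 55.3 in Prepuberty, 22.6 and 39.8 in DCIS, 139.9 in Tumor 1 and 24.2 in Tumor 2. Tumor 2 fell within the range of the glands, so the change of 1.40 ± 0.81 (adjusted p = 0.317) rested on Tumor 1 and was -0.37 without it. Pfkp, a phosphofructokinase that commits sugar to glycolysis, was alike, with 32.6 and 30.9 in DCIS, 112.3 in Tumor 1 and 33.0 in Tumor 2, and a change of 0.05 without Tumor 1. Hk2, the hexokinase that traps glucose in the cell, went the other way in Tumor 1, at 5.14 against 24.1 in Tumor 2 and 20.9 and 24.7 in DCIS (-0.64 ± 0.65, adjusted p = 0.562). Without Tumor 2 its change was -2.17, and without Tumor 1 it was 0.07.

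None of the enzymes of the middle of the pathway passed edgeR's test in this comparison. Pgk1, which makes the first ATP of the pathway, was at 349 and 314 in DCIS and 639.8 and 396 in Tumor (0.64 ± 0.36, adjusted p = 0.303; 0.25 without Tumor 1). Eno1, the enolase, was at 112 and 200.4 against 353 and 247 (0.94 ± 0.58, adjusted p = 0.341). For Aldoa, the aldolase, the states overlapped widely, since Tumor 2 at 268 was the lowest of the 6 libraries and Prepuberty 2 at 1034 the highest. In all, 7 of the 10 genes had both Tumor values above both DCIS values, as did 30.3% of all genes tested, and 0 had both below, as did 26.8%. The median change of the 10 was 1.07 against 0.09 over all genes.

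**Figure D2:**
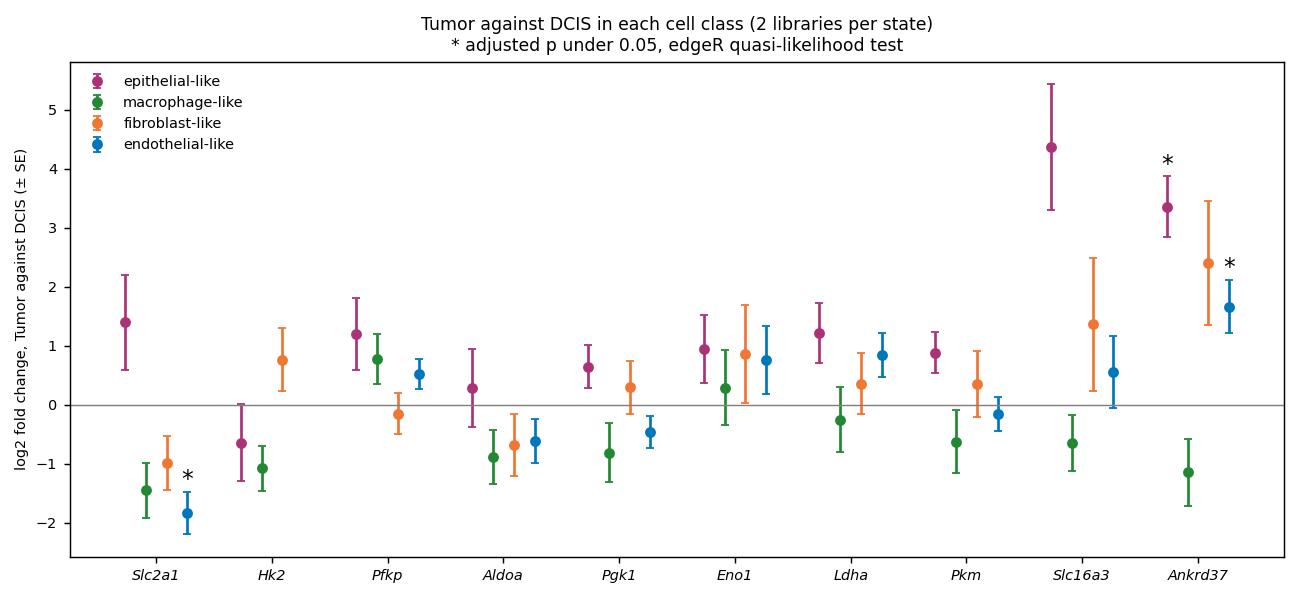
The x axis lists the genes and the y axis gives the log2 fold change of Tumor against DCIS with its SE, 1 colour for each cell class (2 libraries in each state). Ankrd37 in epithelial-like cells (3.35) and in endothelial-like cells (1.66) and Slc2a1 in endothelial-like cells (-1.84) carry the asterisk for an adjusted p under 0.05. Hk2 in endothelial-like cells is not drawn, with 1 UMI in each Tumor library.

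In macrophage-like cells the fitted Tumor against DCIS changes of the lactate exporter and of Ankrd37 were negative, and neither gene passed. Slc16a3 had 58.4 and 106.5 normalised CPM in Prepuberty, 57.1 and 156.3 in DCIS and 71.6 and 62.1 in Tumor. Ankrd37 had 23.9 and 22.1 in Prepuberty, 27.0 and 121.4 in DCIS and 37.2 and 28.2 in Tumor, so that DCIS 2 stood apart from the other 5 libraries. The fitted changes of Tumor against DCIS were -0.66 ± 0.47 for Slc16a3 and -1.15 ± 0.57 for Ankrd37, and without DCIS 2 they were 0.20 and 0.25. Against Prepuberty, where Ankrd37 had 9 and 11 UMIs, its change was 0.51 ± 0.66 (adjusted p = 0.717).

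Slc2a1 and Hk2 had both Tumor values below both DCIS values in macrophage-like cells, and neither passed. Slc2a1 was at 83.2 and 144.6 in DCIS against 53.0 and 29.5 in Tumor (-1.45 ± 0.47, adjusted p = 0.0816). Hk2 was at 75.3 and 139.5 against 51.4 and 49.2 (-1.08 ± 0.38, adjusted p = 0.103). Aldoa and Pgk1 also had both Tumor values below both DCIS values, which makes 4 of 10 genes, beside 28.3% of all genes, and 1 gene, Pfkp, had both above, beside 30.7%. The median change of the 10 was -0.74 against 0.06 over all genes. None of the 10 passed edgeR's test in Tumor against DCIS (6.47% of 7835 genes did), while 2 had an unadjusted p under 0.05 and DESeq2 passed 0. In Tumor against Prepuberty 0 of 10 passed (5.92% of genes did), with 0 at an unadjusted p under 0.05 and 0 by DESeq2. Neutrophil markers summed to 1071 and 5028 CPM in the Tumor sums of this class against 67 to 352 in the other 4. Dendritic markers summed to 4947 and 2370 CPM in Tumor and 1950 and 1848 in DCIS. In clusters made without integration, the macrophage-like cluster led by Pf4 and Ccl4 held 237 and 163 DCIS cells and 59 and 41 Tumor cells. The macrophage-like cluster led by C1qa and C1qc held 4 and 6 DCIS cells and 340 and 107 Tumor cells. The part of this make-up in the members' levels was not tested. Without the cells that grouped as neutrophil-like (63 in Tumor 1, 46 in Tumor 2) in clusters made without integration, a setting chosen after the data were seen, Slc2a1 was at -1.60 and Hk2 at -1.10.

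Fibroblast-like cells had higher Slc16a3 and Ankrd37 in both Tumor libraries than in the other 4, but the spread between libraries was wide. Slc16a3 was at 1.57 and 34.2 normalised CPM in Prepuberty, 11.97 and 45.9 in DCIS and 79.8 and 70.0 in Tumor (1.36 ± 1.13 against DCIS, adjusted p = 0.444). Ankrd37 was at 1.32 and 7.47, 0.479 and 7.29, and 18.0 and 25.3 in the same order, where DCIS 1 rests on 2 UMIs. Its change against DCIS was 2.40 ± 1.05 (adjusted p = 0.159). Without DCIS 1 and without DCIS 2 the changes were 1.52 and 5.37 for Ankrd37 and 0.65 and 2.54 for Slc16a3. With the replicate number as a block, Ankrd37 passed, at 3.02 ± 0.71 against DCIS (adjusted p = 0.025) and 2.81 ± 0.66 against Prepuberty (adjusted p = 0.0296). The block rests on a check of these same data alone, and the labels give no shared litter or day.

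Hk2 in fibroblast-like cells was high in Tumor 1 alone, at 100.7 against 29.6 in Tumor 2 and 30.0 to 42.2 in the 4 gland libraries. Slc2a1 had values of 84.5 and 162 in DCIS and 82.1 and 43.3 in Tumor (-0.98 ± 0.46, adjusted p = 0.182). Ldha, Pkm and Pgk1 had fitted changes between 0.30 and 0.36, Eno1 of 0.86, Pfkp of -0.15 and Aldoa of -0.68, with adjusted p from 0.412 to 0.799. Without the block 0 of 10 genes passed edgeR's test in either comparison with Tumor (12% and 8.53% of 12117 genes did), with 0 at an unadjusted p under 0.05 and 0 by DESeq2. Both Tumor values lay above both DCIS values for 3 genes (34.0% of all genes) and below them for 1 (28.8%), and the median change was 0.35 against 0.11 over all genes.

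The fibroblast-like class also differed in make-up. Cluster 8, led by Crabp1, Col1a1 and Mfap4, held 100 of 225 and 119 of 264 Tumor cells against 159 of 593 and 183 of 1054 in DCIS. In the clusters of this class that held Tumor cells, 16.3% to 52.8% of those cells had a T-antigen UMI, against 3.75% in macrophage-like cells and 3.16% in the larger endothelial-like cluster. The median depth of those fibroblast-like clusters was 9611 to 10530 UMIs, that of macrophage-like cells 4895 and that of the endothelial-like cluster 8338. T antigen was higher in Tumor against DCIS by 6.89 ± 0.92 on the log2 scale (adjusted p = 0.00968). Myoepithelial markers summed to 1254 and 428 CPM in the Tumor sums and 28.9 and 45.0 in DCIS, and epithelial markers to 496 and 173 against 82.0 and 66.1. When the class was limited to clusters, made without integration, in which under 20% of Tumor cells had a T-antigen UMI, an alternative chosen after the data were seen that left 175 and 34 Tumor cells, Slc16a3 was at 0.23 and Ankrd37 at 0.68, and Pgk1, Eno1, Ldha and Pkm turned negative, from -0.17 to -0.81.

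Endothelial-like cells had less Slc2a1, the carrier that also moves glucose across barrier endothelia, and more Ankrd37 in Tumor than in DCIS. Slc2a1 fell from 120.5 and 208.1 normalised CPM in DCIS to 45.4 and 46.8 in Tumor, a change of -1.84 ± 0.36 (adjusted p = 0.0129), and both Tumor values also lay below the 83.7 and 117.6 of Prepuberty. Its direction held in all 18 alternative settings (-2.63 to -1.41), and 14 kept the call. Ankrd37 was at 32.8 and 45.6 in Prepuberty, 19.9 and 43.5 in DCIS and 131.1 and 57.6 in Tumor (1.66 ± 0.45 against DCIS, adjusted p = 0.0409). The Tumor sums of this class hold 76 and 33 cells, and Ankrd37 has 101 and 16 UMIs there.

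The endothelial-like class had another make-up in each state. Cluster 10, led by the venous genes Ackr1 and Selp, held 265 of 424 and 177 of 353 cells in DCIS but 8 of 76 and 6 of 33 in Tumor, where cluster 5, led by the capillary gene Gpihbp1, held 68 and 27. Within cluster 5 alone, a setting chosen after the data were seen, Slc2a1 went from 104.5 and 183.9 CPM (DCIS) to 46.9 and 57.0 (Tumor, -1.72 ± 0.31, adjusted p = 0.00758). Ankrd37 went there from 6.91 and 20.1 CPM (DCIS) to 140.6 and 71.2 (Tumor, 2.84 ± 0.75, adjusted p = 0.0309), so both genes passed within this cluster.

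The rise of endothelial Ankrd37 depended on which cells were counted. It was 0.72 without Tumor 1 (adjusted p = 0.493), and -1.84 (adjusted p = 0.529) in clusters made without integration, where 11 and 17 Tumor cells kept the name and a cluster of 80 Tumor cells led by Igfbp3, Kcne3, Esm1 and Apln stayed unnamed. Slc16a3 had 14.2 and 41.5 in DCIS and 37.6 and 46.8 in Tumor, with overlap. Ldha had 315 and 487 in DCIS and 818 and 616 in Tumor (0.84 ± 0.37, adjusted p = 0.157), with both Tumor values above the other 4. Hk2 had 4 and 5 UMIs in DCIS and 1 in each Tumor library, too few for a comparison. The other 5 genes had adjusted p from 0.207 to 0.727. In this class 2 of 10 genes passed in Tumor against DCIS, beside 14.5% of the 10545 genes tested, and 0 of 10 in Tumor against Prepuberty, beside 12.9%, where 3 had an unadjusted p under 0.05 and DESeq2 passed 0. Both Tumor values lay above both DCIS values for 4 genes (28.7% of all genes) and below them for 2 (31.5%), and the median change was 0.28 against -0.05 over all genes.

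Between DCIS and Prepuberty no member passed edgeR's test in any of the 4 classes, where the share of all genes passing was 0.0% in epithelial-like, fibroblast-like and endothelial-like cells and 0.128% in macrophage-like cells. The members with an unadjusted p under 0.05 numbered 0 in epithelial-like, 1 in macrophage-like, 1 in fibroblast-like and 2 in endothelial-like cells, and DESeq2 passed 0 in each.

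The 2 libraries of a gland state differed in the same direction for most of the genes, except in epithelial-like cells of DCIS. Prepuberty 2 exceeded Prepuberty 1 for 10 of 10 genes in epithelial-like cells, 8 in macrophage-like, 9 in fibroblast-like and 10 in endothelial-like cells, where 47.1%, 49.5%, 48.4% and 51.9% of all tested genes did. DCIS 2 exceeded DCIS 1 for 5 genes in epithelial-like cells and for 10 of 10 in each of the other 3 classes (48.7%, 49.8%, 52.3% and 48.4% of all genes). Eno1 in fibroblast-like cells is an example, with 98.8 and 487 in Prepuberty and 61.3 and 274 in DCIS. Tumor 2 exceeded Tumor 1 for 1, 0, 2 and 4 genes in the same order of classes (52.1%, 49.0%, 49.2% and 45.5% of all genes). Dissociation response genes, 12 immediate early and heat shock genes, summed in fibroblast-like cells to 1217 and 2194 CPM in Prepuberty, 2152 and 2220 in DCIS and 5869 and 2584 in Tumor. In endothelial-like cells they summed to 4109 and 8680 in Prepuberty, 6908 and 8131 in DCIS and 4525 and 973 in Tumor. Their sums in DCIS and in Tumor were 3107 and 3299 against 4804 and 1743 in epithelial-like cells, and 1380 and 2070 against 4140 and 1966 in macrophage-like cells. Between DCIS and Tumor, 0 of the 12 rose and 2 fell in epithelial-like cells (0.753% and 1.61% of all genes did) and 2 rose and 1 fell in macrophage-like cells (2.44% and 4.03%). In fibroblast-like cells 1 rose and 2 fell (7.08% and 4.87%), and in endothelial-like cells, where the fall of Slc2a1 was called, 0 rose and 5 fell (7.55% and 6.94%). Their part in the members' levels was not tested.

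Whether a gene changed more in one class than in another was tested in 1 fit of all 24 sums with a term for each library. Changes are compared with their sign, so that a lower one can be a fall. Slc2a1 had fitted changes of -1.45 in macrophage-like, -0.98 in fibroblast-like, -1.84 in endothelial-like and 1.40 in epithelial-like cells. The Tumor against DCIS change was lower in macrophage-like than in epithelial-like cells for 4 of 10 genes, beside 2.17% of 13524 genes, and higher for 0. They were Slc16a3 (difference of log2 fold changes -4.76 ± 0.89, adjusted p = 0.00786), Ankrd37 (-4.05 ± 0.82, adjusted p = 0.0114), Slc2a1 (-2.54 ± 0.56, adjusted p = 0.0167) and Ldha (-1.38 ± 0.38, adjusted p = 0.0467). Slc16a3 and Ankrd37 kept the call in 9 of 10 alternatives each and lost it without DCIS 2 (adjusted p = 0.188 and 0.21). Ldha kept it in 1 of 10, with an adjusted p up to 0.423.

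Against endothelial-like cells the change of Slc2a1 differed by -3.09 ± 0.60 (adjusted p = 0.00932) and that of Slc16a3 by -3.64 ± 0.96 (adjusted p = 0.045), 2 of 10 genes beside 1.97% of all genes with a lower change. Slc16a3 kept that call in 5 of 10 alternatives, with an adjusted p up to 0.365 without DCIS 2. Against fibroblast-like cells Slc2a1 differed by -2.11 ± 0.54 (adjusted p = 0.0193), 1 of 10 beside 4.66%, and Slc16a3 by -2.73 ± 0.86 (adjusted p = 0.0523). Ankrd37 differed by -0.47 ± 0.86 from fibroblast-like cells (adjusted p = 0.804), an interval that leaves room for a large difference of either sign. The 3 differences of Slc2a1 kept their direction in all 10 alternatives and lost the call without Tumor 1, DCIS 1 or DCIS 2. Without Tumor 1 they were -1.60 (macrophage-like), -1.19 (fibroblast-like) and -1.56 (endothelial-like), with adjusted p from 0.065 to 0.186. The 3 comparisons share the epithelial-like sums and are not independent.

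**Figure D3:**
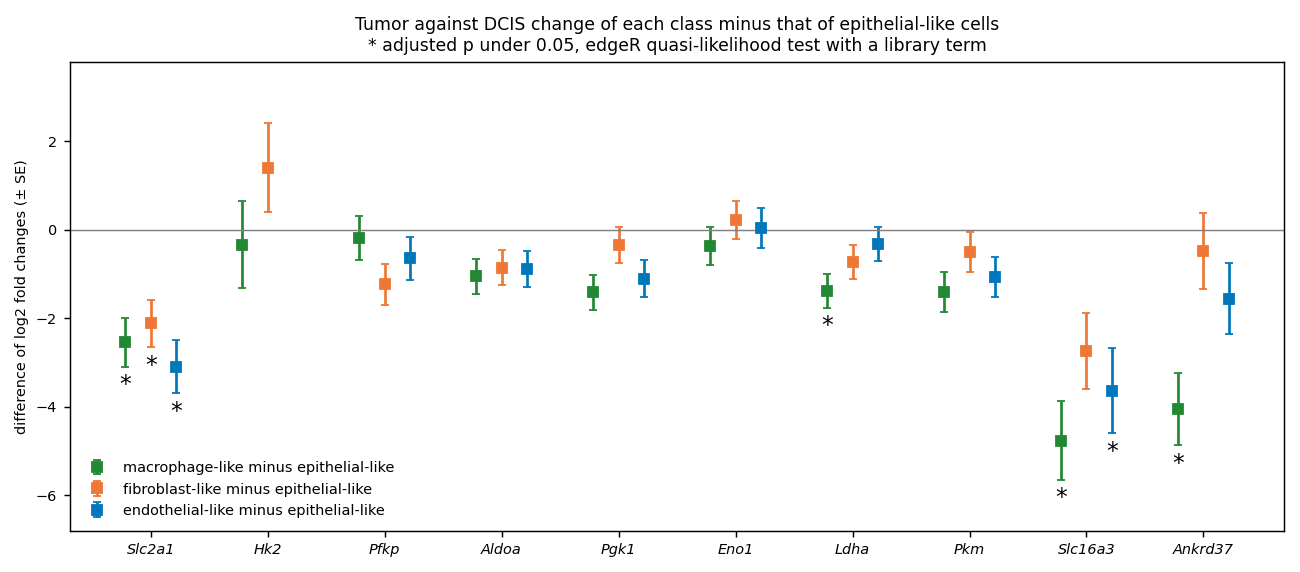
The y axis is the Tumor against DCIS log2 fold change of a class minus that of epithelial-like cells, with its SE, for each gene on the x axis. The asterisks mark adjusted p under 0.05, which Slc2a1 reaches for all 3 classes, Slc16a3 for macrophage-like and endothelial-like cells, and Ankrd37 and Ldha for macrophage-like cells.

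Within the Tumor libraries the same fit compared levels between classes. Hk2 was higher in macrophage-like than in epithelial-like cells by 2.37 ± 0.73 on the log2 scale (adjusted p = 0.017) and Aldoa by 1.09 ± 0.28 (adjusted p = 0.00653), 2 of 10 genes beside 17.5% of all genes (37.9% passed in either direction). Without Tumor 1, Hk2 was at 1.498 (adjusted p = 0.101), and without Tumor 2, Aldoa was at 0.55 (adjusted p = 0.214). Hk2 was higher in fibroblast-like cells by 2.35 ± 0.76 (adjusted p = 0.0389), 1 of 10 beside 10.6% (19.2% in either direction), and this was 0.44 without Tumor 1. Against endothelial-like cells 0 of 10 passed edgeR's test, beside 25.4%, and 2 had an unadjusted p under 0.05.

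Inside the epithelial-like class, 5 clusters could be told by their leading genes. Cluster 0 is led by Cenpf and Ube2c and cycles, cluster 1 is led by Ankrd1 and Cldn1, cluster 9 by the milk genes Csn1s1 and Ltf, cluster 11 by Pthlh and Nppb, and cluster 14 by Tph1 and Cxcl15 with the prolactin receptor Prlr. Cluster 11 had the highest Slc16a3 of the 5 in Tumor 1 and in Tumor 2, at 145.7 and 103.3 normalised CPM, and cluster 9 had 34.7 and 31.6. Ldha was at 1802 and 956 in cluster 11 against 956 and 568 in cluster 9. Ankrd37 had 87.2 and 52.1 in cluster 1, 70.7 and 55.4 in cluster 11, 35.5 and 18.5 in cluster 9 and 91.8 and 5.62 in cluster 14. Its highest cluster was 14 in Tumor 1 and 11 in Tumor 2, but cluster 14 held only 14 and 42 Tumor cells.

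The clusters took other shares of the class in each state. Cluster 11 held 39 of 1173 and 63 of 916 cells in DCIS and 596 of 2626 and 216 of 1319 in Tumor, and cluster 14 held 137 and 302 in DCIS and 14 and 42 in Tumor. Myoepithelial markers in the sums of the whole class came to 1064 and 497 CPM in DCIS and 1450 and 2565 in Tumor, and their part in the members' levels was not tested. Both Tumor values of Slc16a3 and of Ankrd37 exceeded both DCIS values in each of these 5 clusters. In cluster 14, the thinnest in Tumor, Slc16a3 was at 113.4 in Tumor 1 and 11.2 in Tumor 2. Ankrd37 was at 5.62 in Tumor 2 there, beside 3.91 in DCIS 2. The cycling cluster 0 had Slc16a3 at 92.7 and 64.8 and Ldha at 1321 and 652. Clusters share libraries, so these values describe the class and were not tested.

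**Figure D4:**
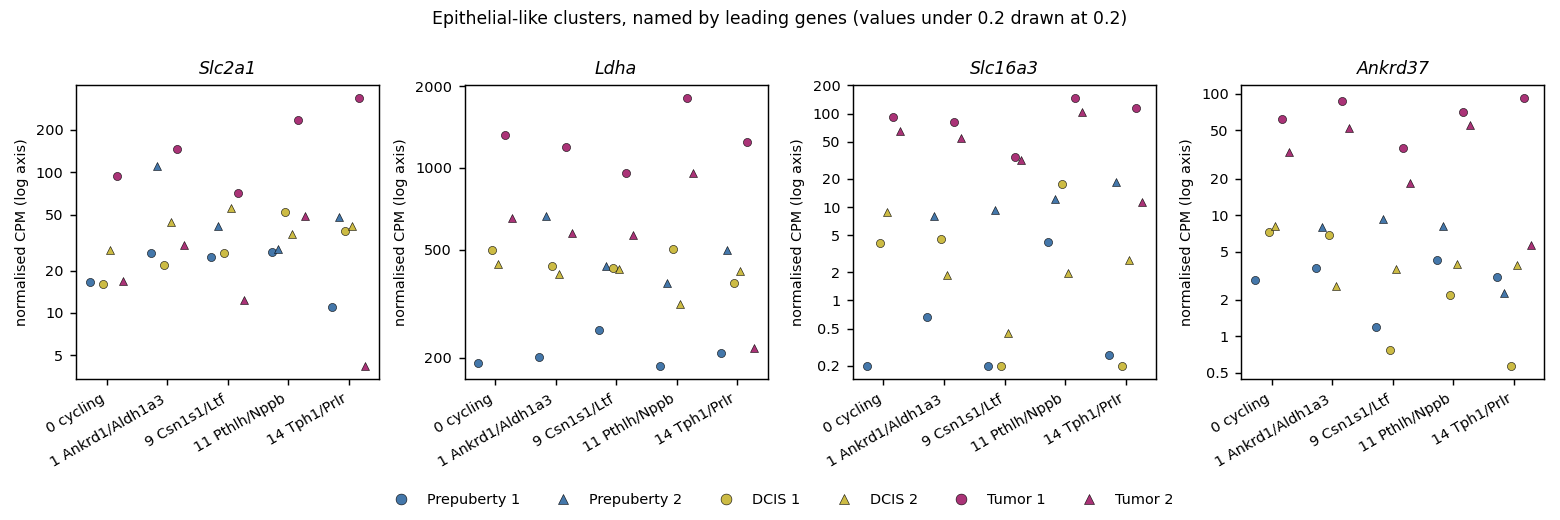
Each panel shows 1 gene, with the 5 epithelial-like clusters along the x axis and normalised CPM on a log y axis, 1 point per library and values under 0.2 drawn at 0.2. The Tumor points of Slc16a3 and Ankrd37 lie above the DCIS points in every cluster, and those of Slc2a1 are split between Tumor 1 and Tumor 2. Prepuberty 2 has no point in cluster 0, where it had 8 cells.

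Epithelial-like cells with a T-antigen UMI were compared with those without one inside each library, over the 5 libraries that had enough cells of both kinds. All 10 genes had a lower fitted level in the cells with a T-antigen UMI, by 0.07 to 0.62 on the log2 scale, and the median was -0.22 against -0.01 over all genes. Aldoa was lower in 5 of 5 libraries, at 325.9 against 501.9 normalised CPM in Prepuberty 1, 217 against 357 in DCIS 1, 427 against 745 in DCIS 2, 864 against 1041 in Tumor 1 and 245 against 320.4 in Tumor 2, and passed (-0.62 ± 0.09, adjusted p = 0.00703). Slc2a1 (-0.43 ± 0.08, adjusted p = 0.0179) and Pgk1 (-0.26 ± 0.06, adjusted p = 0.0482) passed as well, 3 of 10 genes beside 1.56% of the 13127 genes, counting those lower. The cells with and without a T-antigen UMI also lay in different clusters. Cluster 14, in which Aldoa was at 1292 normalised CPM in DCIS 2 against 283 in cluster 0, held 8.62% of the DCIS 2 cells with such a UMI and 38.7% of those without, and 12.7% and 42.9% in Prepuberty 1. Within cluster 0 alone, the largest of the class and a setting chosen after the data were seen, 0 of 10 genes passed edgeR's test and 4 had an unadjusted p under 0.05 (DESeq2 was not run there). Aldoa was at -0.22 ± 0.07 in cluster 0 (adjusted p = 0.308), Pgk1 at -0.23 (adjusted p = 0.248) and Slc2a1 at -0.06 (adjusted p = 0.944), so all 3 calls were lost there. Deeper cells are more likely to show a T-antigen UMI, and with each cell thinned to 2000 UMIs Aldoa alone passed, Slc2a1 was at -0.17 and Pfkp at 0.00.

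**Figure D5:**
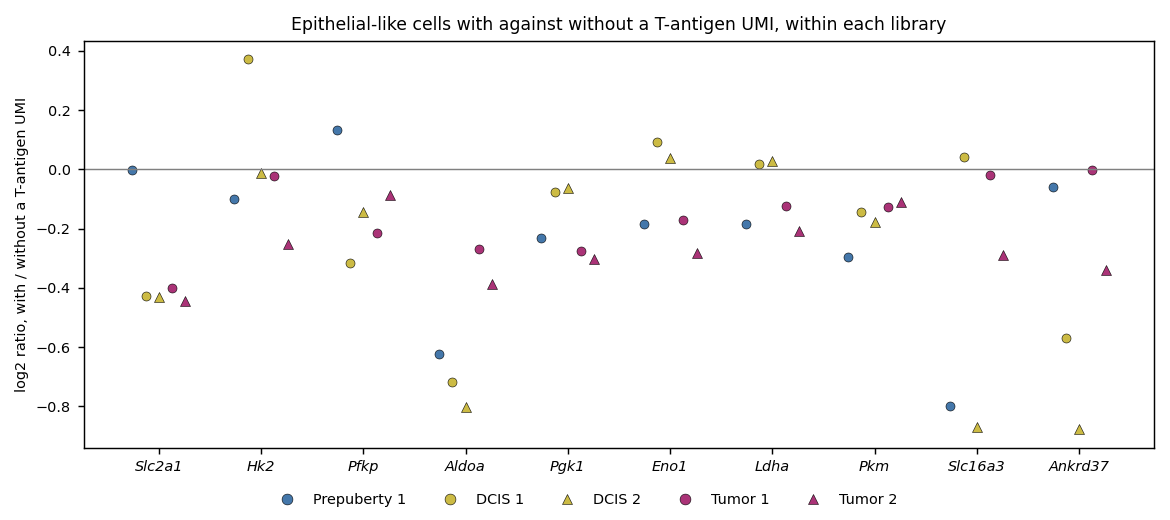
The y axis is the log2 ratio of normalised CPM in epithelial-like cells with a T-antigen UMI to that in cells without one, for each gene on the x axis, 1 point per library. All 5 points lie below 0 for Aldoa, Slc2a1 and Pgk1, which passed the test over the whole class, and for Pkm and Ankrd37, which did not. The points of Slc2a1 in Prepuberty 1 and of Ankrd37 in Tumor 1 are at about 0.

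The rest of the pathway was read from lists of related genes, for Tumor against DCIS, by the fits without a replicate block in all classes. Of all genes tested, 0.753% rose and 1.61% fell in epithelial-like cells, 2.44% and 4.03% in macrophage-like, 7.08% and 4.87% in fibroblast-like and 7.55% and 6.94% in endothelial-like cells. Of 18 tested among 19 other glycolysis and lactate genes, 0 rose and 1 fell in epithelial-like cells. The median change of the list was 0.43 there, -0.46 in macrophage-like, 0.33 in fibroblast-like and -0.41 in endothelial-like cells, beside 0.09, 0.06, 0.11 and -0.05 over all genes. The one that fell was Pfkfb3, which makes the sugar phosphate that drives phosphofructokinase, from 22.9 and 37.5 to 5.87 and 2.40 normalised CPM (-2.86 ± 0.51, adjusted p = 0.0437). Pfkfb3 also fell in macrophage-like cells (-2.21 ± 0.38, adjusted p = 0.0108), with the neuronal enolase Eno2 (-4.0 ± 0.46, adjusted p = 0.00212) and the hexokinase Hk3 (-2.20 ± 0.40, adjusted p = 0.013), so that 0 rose and 3 fell of 14 tested. In fibroblast-like cells 2 of 16 rose, the aldolase Aldoc (1 UMI in each DCIS library, 20 and 43 UMIs in Tumor, adjusted p = 0.0141) and the dehydrogenase Ldhb (1.96 ± 0.52, adjusted p = 0.0498), and 1 fell, Eno2 (-1.59 ± 0.35, adjusted p = 0.0286). Among 14 tested in endothelial-like cells the lactate carrier Slc16a1 fell, from 31.9 and 30.4 to 6.49 and 3.60 (-2.45 ± 0.43, adjusted p = 0.00832), on 5 and 1 UMIs in Tumor, and 0 rose.

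Of 20 other HIF-1 targets, the list's median change was 0.49 in epithelial-like, -0.59 in macrophage-like, 0.49 in fibroblast-like and -0.51 in endothelial-like cells. P4ha1, a collagen prolyl hydroxylase subunit, rose in epithelial-like cells from 10.8 and 12.3 to 67.5 and 49.5 (2.34 ± 0.37, adjusted p = 0.0359) and was the 1 of 20 that passed there. Vegfa, the endothelial growth factor, had 8.20 and 11.7 in DCIS and 73.1 and 41.4 in Tumor and did not pass (2.52 ± 0.53, adjusted p = 0.0534); it was named after its values were seen. In macrophage-like cells 0 of 19 rose and 2 fell, Vegfa (-2.04 ± 0.37, adjusted p = 0.013) and Ddit4 (-2.99 ± 0.74, adjusted p = 0.0402). In fibroblast-like cells 3 of 20 rose, Cited2 (2.79 ± 0.43), Bhlhe40 (1.88 ± 0.40) and Car9 (adjusted p = 0.034), and 1 fell, Adm, from 401 and 510.5 to 17.3 and 22.4 (-4.51 ± 0.41, adjusted p = 0.00567). In endothelial-like cells 1 of 19 rose, Anxa2 (2.24 ± 0.32), and 5 fell, namely Mif, Ndrg1, P4ha2, Ddit4 and P4ha1 (-2.63 to -0.91). Car9, a carbonic anhydrase at the cell surface, had 0.0 and 0.140 normalised CPM in DCIS fibroblast-like cells and 2.29 and 18.1 in Tumor, and no fold is given against so few counts.

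Among the regulators of the pathway, 0 of 6 tested passed in epithelial-like cells (1 at an unadjusted p under 0.05 by edgeR), 1 of 5 fell in macrophage-like, 0 of 6 passed in fibroblast-like (1 unadjusted) and 2 of 6 fell in endothelial-like cells. The mRNA of the regulator Hif1a was lower in both Tumor libraries than in both DCIS libraries in 3 of the 4 classes. It was at 61.2 and 81.3 against 21.7 and 42.5 in epithelial-like cells (-1.15 ± 0.38, adjusted p = 0.125). Hif1a fell in macrophage-like cells from 515 and 421 to 94.1 and 124.7 (-2.10 ± 0.47, adjusted p = 0.0303) and in endothelial-like cells from 938 and 646 to 217 and 256 (-1.75 ± 0.36, adjusted p = 0.0155). In fibroblast-like cells, where the states overlapped, the change was -0.41 ± 0.37 (adjusted p = 0.483). Epas1, which encodes HIF-2α, did not pass in epithelial-like (0.78 ± 0.40, adjusted p = 0.268), fibroblast-like (-2.0 ± 0.62, adjusted p = 0.0738) or endothelial-like cells (0.50 ± 0.33, adjusted p = 0.331) and was too low to test in macrophage-like cells. HIF-1α is controlled mainly by the stability of its protein, which was not measured here. Myc, which also drives glycolysis genes, fell in endothelial-like cells (-1.90 ± 0.36, adjusted p = 0.0109).

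Of the genes that govern the use of pyruvate in mitochondria, 0 rose and 1 of 10 fell in epithelial-like cells, 1 of 9 rose and 0 fell in fibroblast-like cells, and 0 rose and 1 of 8 fell in endothelial-like cells. The shares of all genes in those directions were 1.61% (fell), 7.08% (rose) and 6.94% (fell). Pdk4, the kinase that blocks pyruvate dehydrogenase, fell in epithelial-like cells from 64.6 and 27.1 in DCIS to 1.27 and 3.29 in Tumor (-4.33 ± 0.62, adjusted p = 0.031). Its levels in Prepuberty were 0.999 and 1.32, close to those of Tumor. Pdk3 rose in fibroblast-like cells (1.81 ± 0.36, adjusted p = 0.0218) and the phosphatase Pdp1 fell in endothelial-like cells (-1.90 ± 0.53, adjusted p = 0.0441), while in macrophage-like cells 0 of 7 tested passed edgeR's test and 0 had an unadjusted p under 0.05.

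Over the 24 sums of class and library, the genes most like Ldha, Slc16a3 and Ankrd37 were picked by Pearson's r of log2(CPM + 1) among 7144 genes tested in all classes. For Ldha these were Pgm2 (r = 0.849), Glmp (0.842) and Yipf1 (0.8225). For Slc16a3 they were BC017643 (0.850), Prelid2 (0.848) and BC031181 (0.816), and for Ankrd37 they were Wsb1 (0.872), Dusp6 (0.859) and Ggta1 (0.830). The sums share libraries and depth. Genes of the lists used here, the members included, were left out of this pick, so no member could appear.

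The changes of the genes were set beside those of their chromosomes. In epithelial-like cells, Slc16a3 was above the DCIS mean by 4.32 in Tumor 1 and 3.74 in Tumor 2 on the log2(normalised CPM + 1) scale, where the 1093 tested genes of chromosome 11 had medians of 0.12 and 0.26. Ankrd37 on chromosome 8 was above it by 3.48 and 2.67 beside chromosome medians of 0.08 and 0.40. Hk2 on chromosome 6 was at -1.95 in Tumor 1 beside a chromosome median of -0.07. Pfkp on chromosome 13 was at 1.79 in Tumor 1 and 0.06 in Tumor 2, and the 37 tested genes within 10 Mb of it had medians of 0.42 and -0.09. Aldoa and Ldha lie on chromosome 7, whose medians were 0.16 and -0.20, and Aldoa was at 1.01 and -0.72 and Ldha at 1.64 and 0.62. For Pgk1 on the X chromosome the gene was at 0.95 and 0.26 beside medians of -0.24 and 0.25. The part of the chromosomes in these changes was not tested.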

How the data were processed

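Droplet 3′ single-cell libraries of 6 samples (3 states, 2 each) were used. The authors aligned reads to mm10 with Cell Ranger (3.0.2 in the file headers), with the T-antigen sequence added, and deposited whole-number UMI counts per gene and barcode. Other tools in the submitters' notes concern data not used here. No sample column was left unmapped.

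Cells with at least 200 genes and under 10% mitochondrial counts were kept, and the top Scrublet scores, in a share that rose with the number of cells, were removed as doublets (707 cells, scanpy 1.11.5), since its own cutoff marked 31 barcodes. Clusters came from Seurat 5.3.0 after integration, without any listed gene. A class needed 3 of its 8 markers, each at least 2.0-fold above the rest and in 25% of cells. Counts were summed per class and library (10 or more cells), filtered by filterByExpr, TMM-scaled and tested with edgeR 4.0.16 (glmQLFTest, Benjamini-Hochberg over all genes, two-sided, threshold 0.05), after a check on simulated data. The joint and T-antigen fits had a library term. DESeq2 1.42.0 and the other settings are in the closing section. All 10 genes are named; of each other list, up to 5 past the threshold in Tumor against DCIS with the smallest adjusted p, with Hif1a and Epas1 always. Myc, Pdk3 and Pdp1 follow that rule. The genes and lists were chosen with earlier results of these data known.

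Libraries share replicate numbers across states. Same-numbered deviations correlated over 0.1 in all 3 pairs in fibroblast-like cells (0.329, 0.145 and 0.173) and not in the other classes, so the numbers were taken as paired in fibroblast-like cells on this check alone; the labels give no shared litter or day. Reads shared by Eno1 and its retrogene Eno1b (947 UMIs against 30460 in epithelial-like cells) may be split.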

Additional observations from a re-analysis of the deposited data

Results flagged for a closer look

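Each value here is a gene whose Tumor against DCIS change differed between epithelial-like cells and another class by the test of the difference itself (edgeR's quasi-likelihood test with a library term, Benjamini-Hochberg adjusted). In macrophage-like cells the change, read with its sign, was lower for Slc2a1 by a log2 difference of -2.54 (adjusted p = 0.0167), for Ldha of -1.38 (adjusted p = 0.0467), for Slc16a3 of -4.76 (adjusted p = 0.00786) and for Ankrd37 of -4.05 (adjusted p = 0.0114). In fibroblast-like cells it was lower for Slc2a1, by -2.11 (adjusted p = 0.0193). In endothelial-like cells it was lower for Slc2a1, by -3.09 (adjusted p = 0.00932), and for Slc16a3, by -3.64 (adjusted p = 0.045). With 2 libraries in each state no library could be tested as standing apart within its state.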

How the results depend on the processing

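Of the counts of passing genes recomputed under the alternatives, 211 stayed within 1.5 times the value reported and 71 did not; among single-gene changes 1010 kept direction and side of the threshold, 47 reversed, 64 lost the threshold and 49 gained it. The cause was not tested unless fewer cells or libraries enter by construction.

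Leaving out the filter on low counts gave, in Tumor against DCIS, 5 passing genes in epithelial-like cells in place of 1, 1 in macrophage-like and 2 in fibroblast-like in place of 0. In Tumor against Prepuberty it gave 6 epithelial-like, 2 fibroblast-like and 3 endothelial-like, in DCIS against Prepuberty 1 macrophage-like and 1 endothelial-like, in the differences of change 7 macrophage-like and 4 fibroblast-like, and in the Tumor levels 2 fibroblast-like and 2 endothelial-like. DESeq2 gave 2 and 3 in epithelial-like cells (against DCIS and Prepuberty). Thinned library sums gave 2 and 2 in epithelial-like cells and 1 in endothelial-like cells against DCIS. Epithelial-like cells with a T-antigen UMI alone gave 0 and 0. Endothelial-like cells gave 1 against DCIS with the listed genes kept in clustering, and 1 without cells that had a T-antigen UMI; against Prepuberty they gave 2 with the compared libraries alone, 2 in cluster 5 alone and 1 with a mitochondrial limit of 5%.

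With the replicate block the count was 0 in epithelial-like cells against DCIS (Ankrd37 adjusted p = 0.0564), 1 and 1 in fibroblast-like cells against DCIS and Prepuberty, and 2 in endothelial-like cells against Prepuberty. The block moved no other count between states by more than 1.5 times. The shared numbers were treated as a pairing in fibroblast-like cells on that check alone, and not elsewhere.

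Clusters without integration gave 2 (fibroblast-like) and 4 (endothelial-like) in the differences of change and 5 endothelial-like in the Tumor levels. They reversed Pgk1 in fibroblast-like cells (-0.0746), Pfkp (-0.74), Eno1 (-0.51), Ldha (-0.44), Slc16a3 (-0.0831) and Ankrd37 (-1.84) in endothelial-like cells, which had 11 and 17 Tumor cells there, and the endothelial-like difference of Eno1 (-1.15). With fibroblast clusters of under 20% T-antigen cells Pgk1 (-0.81), Eno1 (-0.17), Ldha (-0.57) and Pkm (-0.74) reversed. Without TMM factors the median of all genes in Tumor against DCIS shifted by 0.40, 0.60, 0.70 and 0.33 (epithelial-like, macrophage-like, fibroblast-like, endothelial-like). With that shift Ldha in macrophage-like (0.27), Pfkp in fibroblast-like (0.50) and Pkm in endothelial-like cells (0.17) reversed, as did the differences of Pfkp in macrophage-like (0.0011) and Pgk1 in fibroblast-like cells (0.0242), and 1 gene passed in the macrophage-like Tumor levels. Thinned sums reversed Pkm in endothelial-like cells (0.0170). The T-antigen comparison within cluster 0 left 0 genes past the threshold. Cells thinned to 2000 UMIs left 1 and put Pfkp at 0.0022.

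Leaving out 1 library at a time moved the count of passing genes from 0 to 4 (epithelial-like against DCIS), 0 to 5 (epithelial-like against Prepuberty), 0 to 1 (macrophage-like against DCIS), 0 to 2 (endothelial-like against DCIS) and 0 to 1 (endothelial-like against Prepuberty). Differences of change ran from 0 to 5, 0 to 4 and 0 to 2, Tumor levels from 1 to 2, 0 to 1 and 0 to 1 (macrophage-like, fibroblast-like, endothelial-like), and T antigen from 1 to 2. Changes that reversed ran, in epithelial-like cells, from -0.37 to 2.14 (Slc2a1), -2.17 to 0.0727 (Hk2) and -0.84 to 0.95 (Aldoa). In macrophage-like cells they ran from -0.38 to 1.44 (Eno1), -0.89 to 0.18 (Ldha), -1.25 to 0.20 (Slc16a3) and -1.91 to 0.25 (Ankrd37). In fibroblast-like cells they ran from -0.41 to 1.36 (Hk2), -0.55 to 0.11 (Pfkp), -0.0128 to 0.50 (Pgk1), -0.0526 to 0.73 (Ldha) and -0.0171 to 0.65 (Pkm), and in endothelial-like cells from -0.45 to 0.0524 (Pkm) and -0.0462 to 1.51 (Slc16a3). Differences of change ran in macrophage-like cells from -1.17 to 1.22 (Hk2), -0.76 to 0.54 (Pfkp) and -0.91 to 0.0210 (Eno1), in fibroblast-like cells from -0.49 to 3.48 (Hk2), -0.48 to 0.81 (Eno1) and -1.83 to 2.24 (Ankrd37), and in endothelial-like cells from -1.15 to 0.0687 (Pfkp) and -0.61 to 0.52 (Eno1). The T-antigen difference of Hk2 ran from -0.18 to 0.0149.

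A lone library is assumed to vary like the other states. Limiting fibroblast-like cells to integrated clusters of under 10% T-antigen cells left no Tumor cells and has no value. The removal of neutrophil-like cells, the limit of 20% and the limits to endothelial-like cluster 5 and epithelial-like cluster 0 were chosen after the data were seen.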

Other observations

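Cells outside the 4 classes give further values, in plain CPM. Cluster 12, led by Acan, Wnt10a and Npy, was left unnamed since no class reached the 3 markers needed in it. It had 402 cells in Tumor 1 and 370 cells in Tumor 2, and T antigen at 300.4 and 69.4 CPM. Its Slc16a3 was 138.2 and 114.6 CPM in Tumor against 0.0, 12.5 and 20.4 in the 2 Prepuberty libraries and DCIS 2 (78, 31 and 24 cells, with 0, 3 and 3 UMIs of Slc16a3), and its Ldha was 1578 and 1165 against 314, 421 and 543. DCIS 1, with 7 cells there, was under the minimum of 10 cells for a sum and has no value.

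Myoepithelial-like cells had Slc2a1 at 315 and 547 CPM in DCIS, 89.4 and 147.5 in Prepuberty and 94.2 and 26.8 in Tumor, so the DCIS libraries lay above the others. Their Ldha was 1095 and 737 in Tumor and 264 to 501 in the 4 gland libraries. Of the Tumor cells of that class, 54.9% had a T-antigen UMI (median depth of the class 6271 UMIs), and its part in these values was not tested. T-cell-like cells had Ldha at 1327 in Prepuberty 2 and at 398 to 612 in the 4 later libraries.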
